A study of Mus musculus with 2 samples.

Results

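The genes described here encode phospholipid flippases of the P4-ATPase family (*Atp8a1*, *Atp8a2*, *Atp8b1*, *Atp8b2*, *Atp8b4*, *Atp11a* and *Atp11b*), their subunit *Tmem30a* and the scramblase *Xkr8*. They were taken as every gene probe on the arrays whose accession belongs to one of these 9 genes, which gave 12 probes of the 55679 gene probes and 9 of the 20887 named genes. RNA of TCRαβ+CD8αα+ intraepithelial lymphocytes (IELs), a T cell population that lies between the epithelial cells of the gut, was measured on 2 Agilent arrays of 1 color. The control array holds RNA of Rbpjf/f mice. The other array, labelled RFF4, holds RNA of CD4-Cre Rbpjf/f mice, in which Cre under the CD4 promoter acts on the floxed *Rbpj* gene in T cells. *Rbpj* encodes the DNA-binding partner of the cleaved Notch receptor. Both pools came from the small intestine of C57BL/6 mice, male and female, 8 to 12 weeks old, and the paper describes its control mice as Rbpj+/+ with CD4-Cre where the label names no Cre. Each pool combines several isolations and was measured on 1 array, so that no p-value and no spread between mice can be given.

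A living cell keeps phosphatidylserine on the inner leaflet of its plasma membrane. P4-ATPases use ATP to move this lipid, and phosphatidylethanolamine or phosphatidylcholine depending on the enzyme, from the outer to the inner leaflet, and most of them must pair with a CDC50 protein such as Tmem30a to leave the endoplasmic reticulum and to work. Scramblases let lipids pass both ways when switched on, and Xkr8 is switched on by caspase cleavage in dying cells, after which exposed phosphatidylserine marks the cell for engulfment by macrophages. The comparison addresses how the transcripts of this machinery differed between the IELs labelled control and those labelled RFF4.

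All 12 probes were well above background on both arrays by the scanner software, so that none of the differences below is a bound, and each probe had 1 spot on each array. Levels are log2 signals relative to the 75th percentile of all gene spots on the same array, and differences are RFF4 minus control. The error beside a difference is that of both spot signals in the scanner's error model, between 0.20 and 0.43 on the log2 scale. It does not cover mice or isolations. Between spots of the same probe, over 243 probes with at least 8 spots each on both arrays, the SD of a difference was 0.11, and it was 0.16 among the 81 dimmest. Probes bind with different strength, so levels were not compared from one probe to another.

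Slide and scan were shared by the arrays, and the signal at the 75th percentile was lower by 1.17 on the log2 scale on the array labelled RFF4, a gap that the scaling removes. The T cell genes *Cd3d*, *Cd3e*, *Cd3g*, *Cd8a*, *Gzma*, *Gzmb* and *Cd160* were all well above background, with differences between −0.15 and 1.02 and a median of 0.35. That median was −0.22 with quantile normalization, where 6 of the 7 were lower, −0.044 with cyclic loess and −0.76 when the arrays were instead scaled on their spike-in control RNAs (spike-in scaling), where 7 of 7 were lower. *Cd8b1*, whose protein the sort excludes, did not clear background on the array labelled RFF4, while *Cd4*, also sorted out, was at 1.67 on the control array and 1.80 on the other. The *Rbpj* probes were not lower on the array labelled RFF4, with differences of 0.32 and 0.82 that became −0.78 and −0.29 with spike-in scaling. Where these probes lie relative to the deleted part is not given in the sources used here, so they do not check the labels.

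Of the 12 probes, 4 were more than 2-fold lower on the array labelled RFF4, both probes of *Atp8a2* and both of *Atp11a*, against a background of 5.87% of the 28686 probes with a difference. More than 2-fold higher was 1 probe, that of *Atp8b1*, against 11.5% of all probes. The other 7 probes, of 6 genes, stayed within 2-fold. By the brightest probe, 2 of 9 genes were more than 2-fold lower (5.05% of 13513 genes) and 1 was higher (12.3%). The median over the 12 probes was −0.55, beside 0.0042 over all probes tested. By the brightest probe it was −0.33 over the 9 genes, beside −0.015 over all genes tested. Among all probes the split between lower and higher calls depended on the scaling, at 1684 lower and 3292 higher here, 2595 and 2558 with each array scaled to its median, and 16361 and 420 with spike-in scaling. In this bulk RNA, fewer cells that express a gene and less RNA of it per cell cannot be told apart.

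Promoter windows were searched for the core RBPJ motif because the deleted gene encodes that DNA-binding protein. RefSeq windows of assembly GRCm38.p6, from 250 bases before to 50 after a start site, were used for 6 of the 9 genes. These were 7 windows, with none for *Atp8a2*, *Atp8b1* and *Xkr8*. Windows of these genes on 1 chromosome were left out beforehand, so a gene without a window was not shown to lack the motif. The motif TGGGAA was searched on both strands and is held by 25.6% of all 32851 windows, and the longer GTGGGAA, which contains it, by 6.38%. It was found in 1 of the 7 windows, that of *Atp8b4*, at 2 places, with first bases at positions −242 and −223 from the start site, and GTGGGAA in none. The 250 upstream bases are shown for *Atp8b4*, with the matches in capitals (TTCCCA is the motif on the opposite strand), and for *Atp11a*, the gene more than 2-fold lower that has a window, in which no base is capital. They lie at chr2:126491554-126491803 on the minus strand and at chr8:12756766-12757015 on the plus strand of GRCm38.p6.
*Atp8b4*: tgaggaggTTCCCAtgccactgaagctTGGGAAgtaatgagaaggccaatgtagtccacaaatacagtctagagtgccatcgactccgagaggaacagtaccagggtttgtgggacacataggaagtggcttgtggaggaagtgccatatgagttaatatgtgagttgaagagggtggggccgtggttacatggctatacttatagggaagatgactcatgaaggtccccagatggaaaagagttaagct
*Atp11a*: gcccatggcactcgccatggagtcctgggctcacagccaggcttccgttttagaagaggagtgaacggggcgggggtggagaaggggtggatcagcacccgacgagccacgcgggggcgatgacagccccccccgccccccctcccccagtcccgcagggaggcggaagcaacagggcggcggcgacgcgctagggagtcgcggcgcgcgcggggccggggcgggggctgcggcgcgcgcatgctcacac
The *Atp11a* window of 300 bases has 76% G and C and 39 CpG pairs, against 48% and 4 in that of *Atp8b4*. A match is a description of letters, and its absence here says only that these windows do not hold them.

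**Figure D1:**
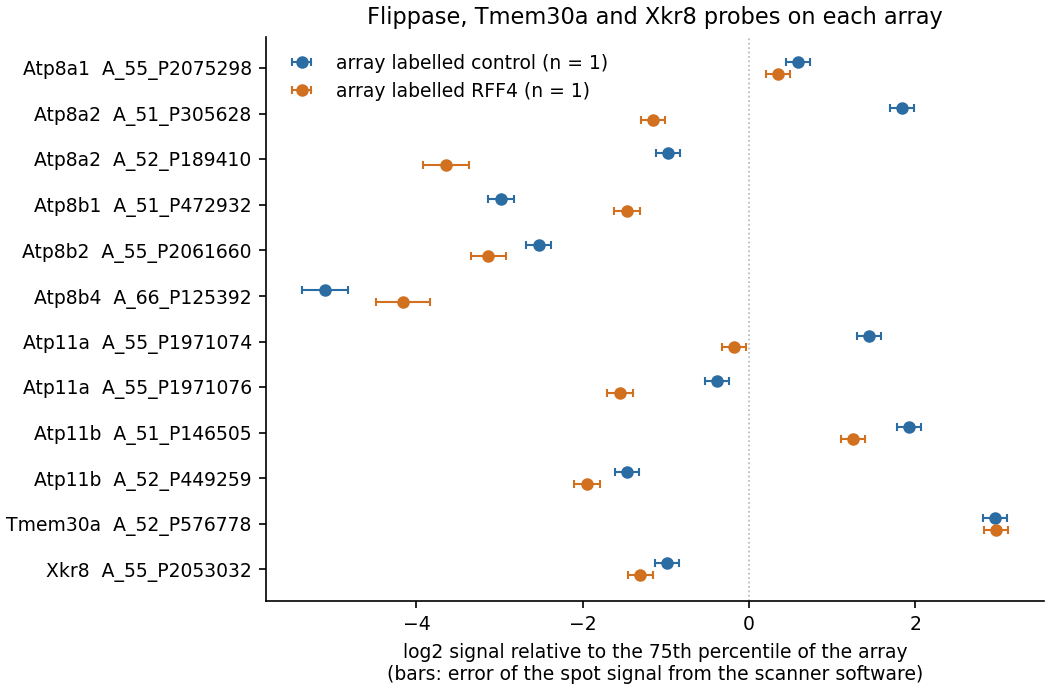
Log2 signal of each of the 12 probes on the control array (blue) and on the array labelled RFF4 (orange), relative to the 75th percentile of the array, with 1 array each and the scanner's error of the spot signal as bars. Probes are not comparable with each other, and the 2 arrays are farthest apart for the *Atp8a2* probes and closest for *Tmem30a*.

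*Atp8a2*, a flippase of phosphatidylserine and phosphatidylethanolamine best known from neurons and photoreceptors, had the largest difference of the 9 genes. Before scaling, its brighter probe (A_51_P305628) gave a signal of 1828 ± 183 on the control array and 102 ± 10.5 on the array labelled RFF4, where the error is the scanner's. On the scaled log2 axis these were 1.84 and −1.15. The signal was thus far lower on the array labelled RFF4, by 3.0 ± 0.21 on the log2 scale, or 7.98-fold, which is 14.5 times the scanner error. The dimmer probe (A_52_P189410) went from 259 ± 26.1 to 18.1 ± 3.52, or from −0.98 to −3.65, a difference of −2.67 ± 0.32. More than 4-fold lower were these 2 of the 12 probes, beside 0.641% of all probes tested, and none of the 12 was more than 4-fold higher, beside 1.81%. Among the 26682 probes well above background on both arrays, they held ranks 18 and 38 from the lowest difference. On the array labelled RFF4 the dimmer probe was close to background, with a spot signal 1.37 times its local background, against 9.09 times on the control array. With normexp, a model-based background correction with an offset of 50, its difference shrank to −0.85, under 2-fold, while the brighter probe stayed at −2.58.

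*Atp8a1* is the closest relative of *Atp8a2*, and its product moves the same lipids. Its only probe went from 0.60 on the control array to 0.35 on the array labelled RFF4, a difference of −0.24 ± 0.20 that is 1.18 times the scanner error. The arrays thus differed unequally for this pair. The difference of *Atp8a2* minus that of *Atp8a1* was −2.75 ± 0.29, a contrast on which the scaling constant has no effect, and this contrast was −2.33 with normexp, −2.78 with quantile normalization and −2.76 with cyclic loess. *Atp8a1* itself lay at −0.42 with median scaling and at −1.35 with spike-in scaling.

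*Atp11a*, whose product is a phosphatidylserine flippase of the plasma membrane in many tissues, was the other gene with both probes past 2-fold. The brighter probe (A_55_P1971074) gave signals of 1387 ± 139 and 200 ± 20.1, and its level went from 1.44 to −0.18, a difference of −1.63 ± 0.20. The other probe (A_55_P1971076) went from −0.38 to −1.55, a difference of −1.17 ± 0.21. Both probes were lower by more than 5 times the scanner error, and 0.46 apart from each other. Among probes well above background on both arrays, 1.23% and 3.42% had a lower difference than these. With normexp the dimmer probe was at −0.71 and so within 2-fold, while the brighter was at −1.57.

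*Atp11b*, a flippase of endosomes and the trans-Golgi network, was lower with both probes but within 2-fold. Its brighter probe went from 1.93 to 1.25, a difference of −0.68 ± 0.20, and the other from −1.46 to −1.95, a difference of −0.49 ± 0.21. These are 3.32 and 2.27 times the scanner error, and 11.8% and 18.9% of probes lay lower. With normexp the dimmer probe was at −0.067, and with spike-in scaling both were past 2-fold, at −1.78 and −1.59. The contrast of *Atp11a* with *Atp11b*, by their brighter probes, was −0.95 ± 0.29. It stayed between −0.98 and −0.79 with quantile normalization, cyclic loess and normexp.

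**Figure D2:**
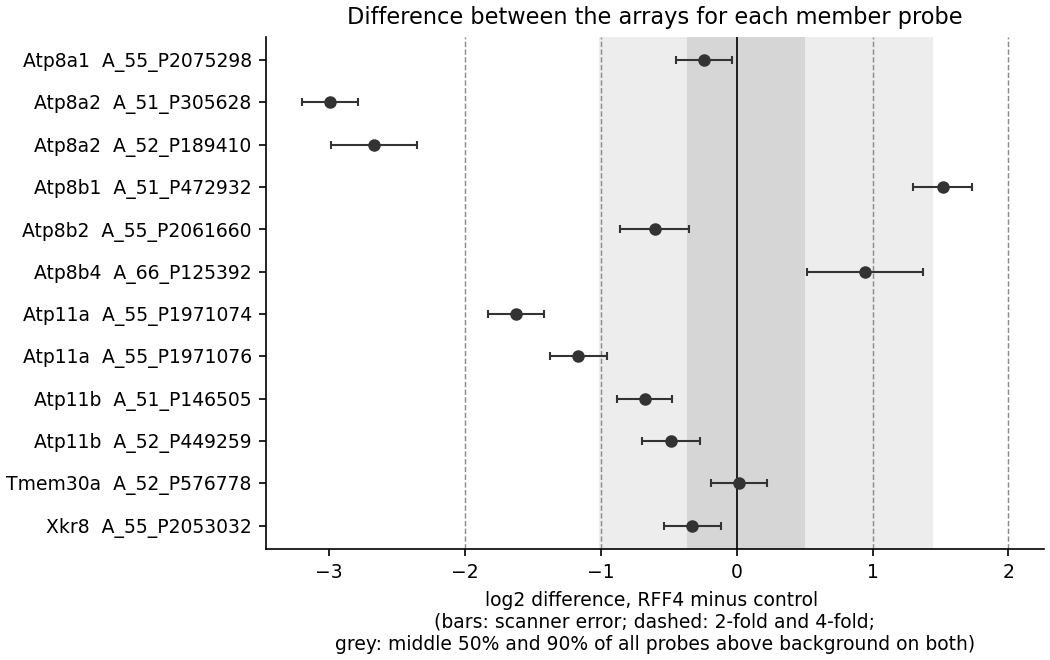
Log2 difference, RFF4 minus control, of each of the 12 probes with the scanner error of the difference as bars, and 1 array per genotype. Dark and light grey hold the middle 50% and 90% of all probes well above background on both arrays, and both *Atp8a2* and both *Atp11a* probes lie to the left of the light band, which starts at −1.01.

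Of *Atp8b1*, *Atp8b2* and *Atp8b4*, which form a class of their own among these flippases, *Atp8b1* passed 2-fold and the other two did not. *Atp8b1* encodes a flippase of the apical membrane of hepatocytes and enterocytes whose loss causes inherited cholestasis. Its probe was the only one of the 12 with a brighter unscaled signal on the array labelled RFF4, at 64.4 ± 6.97 on the control array and 81.9 ± 8.62 on the other. Scaled, it went from −2.98 to −1.47, a difference of 1.52 ± 0.22 (2.86-fold). It was higher under all alternatives run, between 1.22 and 1.54 except for spike-in scaling, where it was 0.41 and so within 2-fold.

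*Atp8b2*, which encodes a flippase of phosphatidylcholine, went from −2.53 to −3.13, a difference of −0.60 ± 0.25. With normexp it became 0.25, so its direction depends on the background correction. *Atp8b4*, a less studied relative, was the dimmest of these genes' probes against its own background, with a spot signal 1.69 and 1.21 times the local background on the 2 arrays. Its level went from −5.10 to −4.16, a difference of 0.94 ± 0.43, and its direction turned with spike-in scaling, to −0.16. This probe lies in the dimmest eighth of all probes well above background on both arrays, where the median difference was 0.41 and 21.8% were more than 2-fold higher. In the eighth that holds *Atp8b1*, the third from the dimmest, the median was −0.028 and 11.8% were more than 2-fold higher.

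**Figure D3:**
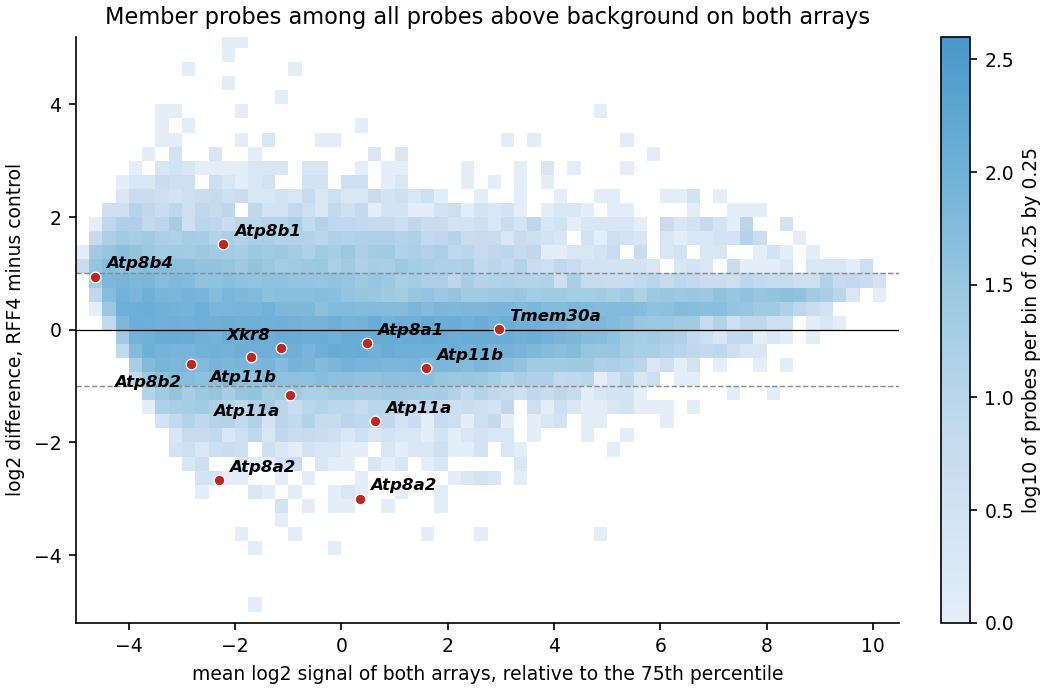
Log2 difference, RFF4 minus control, against the mean log2 signal of both arrays, where blue shades count all 26682 probes well above background on both arrays per bin, red points are the 12 probes of the flippases, *Tmem30a* and *Xkr8*, and dashed lines mark 2-fold. The *Atp8a2* probes lie at the lower edge of the cloud, and *Atp8b4* lies at its dim end, where the cloud is shifted upwards.

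*Tmem30a*, the CDC50 subunit shared by these flippases, had nearly the same level on both arrays. Its signals of 3968 ± 397 and 1784 ± 178 became 2.96 and 2.98 after scaling, a difference of 0.017 ± 0.20. Contrasts with this subunit do not depend on the scaling constant. Relative to *Tmem30a*, the contrast was −3.01 ± 0.29 for *Atp8a2*, −1.64 ± 0.29 for *Atp11a*, −0.69 ± 0.29 for *Atp11b* and 1.5 ± 0.30 for *Atp8b1*. With normexp these contrasts were −2.39, −1.38, −0.58 and 1.40. For *Atp8a1* the contrast was within its error, at −0.26 ± 0.29, and for *Atp8b2* it was −0.62 ± 0.33 but turned to 0.44 with normexp. For *Atp8b4* it was 0.93 ± 0.47. *Tmem30a* moved to −0.19 with normexp and to −1.09 with spike-in scaling.

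*Xkr8* went from −0.98 to −1.31, a difference of −0.33 ± 0.21, which is 1.56 times the scanner error. It was −0.11 with normexp and −1.43 with spike-in scaling. The genes of its partners were also within 2-fold. *Bsg* and *Nptn*, which encode its chaperone partners basigin and neuroplastin, differed by 0.45 and −0.0039. With spike-in scaling 1 of these 2 genes was more than 2-fold lower, beside 51.6% of all probes.

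The other P4-ATPases and CDC50 subunits were represented by 8 of 9 listed genes, of which 5 cleared background on both arrays and *Atp8b3*, *Atp8b5* and *Tmem30c* on neither. Of the 5, 2 passed 2-fold towards higher and none towards lower, beside 12.3% and 5.05% of all genes, and their median was 0.69 beside −0.015 over all genes. *Atp10b*, a flippase of late endosomes and lysosomes, went from −0.92 to 0.56, a difference of 1.47. *Tmem30b*, an alternative subunit typical of epithelia, went from −1.72 to −0.45, a difference of 1.27, and its other probe was not well above background. With spike-in scaling these differences were 0.37 and 0.16, and *Tmem30b* was at 0.99 with normexp. The median of the 5 turned to −0.41 with spike-in scaling, where 1 was more than 2-fold lower beside 51.6% of all probes. *Atp9a*, which works without a CDC50 subunit, differed by 0.46, *Atp9b* by −0.044 and *Atp10a* by 0.69.

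Among 20 listed scramblase genes outside *Xkr8*, 19 had a probe, 9 were well above background on neither array and 10 had a difference, with a median of −0.029. Of these, 1 was more than 2-fold lower and 1 higher, beside 5.05% and 12.3% of all genes. *Atg9a*, the scramblase of autophagosome formation, went from 2.38 to 1.29, a difference of −1.09 (2.13-fold), and it stayed past 2-fold under every scaling and background correction run. *Xkr9*, a caspase-activated relative of *Xkr8* known from the intestine, went from −5.29 to −3.62, a difference of 1.66 that was 0.56 with spike-in scaling. Like *Atp8b4*, it lies in the dimmest eighth of probes, where 21.8% were more than 2-fold higher. *Ano6*, the calcium-activated scramblase of platelets and lymphocytes, differed by 0.19, and *Plscr1*, a phospholipid scramblase family member, by 0.11. The remaining differences, of which 2 are bounds, lay between −0.23 and 0.79 by the brightest probes. *Tmem41b* was at −0.080 by its brighter probe and at −0.97, close to 2-fold, by its dimmer one. With spike-in scaling 6 of the 10 were more than 2-fold lower, near the 51.6% of all probes, and the median was −1.14.

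Of 5 genes of phosphatidylserine supply, none was past 2-fold, where 5.05% of all genes were lower and 12.3% higher, and the median was −0.082. *Pisd*, whose enzyme turns phosphatidylserine into phosphatidylethanolamine in mitochondria, was nearest, at 4.19 on the control array and 3.19 on the other, a difference of −0.99 close to 2-fold. It passed 2-fold with median scaling (−1.17), normexp (−1.19), cyclic loess (−1.02) and spike-in scaling (−2.10), and narrowly in the authors' normalized table (−1.0). With spike-in scaling 4 of the 5 were more than 2-fold lower, beside 51.6% of all probes. The synthase genes *Ptdss1* and *Ptdss2* differed by 0.044 and 0.30, and *Osbpl5* and *Osbpl8*, whose proteins carry phosphatidylserine to the plasma membrane, by −0.082 and −0.40.

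Most markers of other gut cells were higher on the array labelled RFF4, fewer of them with spike-in scaling. Of 16 epithelial genes, 16 cleared background on both arrays, and with spike-in scaling 11 were higher and 5 lower. In the main scaling 16 were higher, from 0.31 (*Cdh1*) to 1.89 (*Apoa1*), with a median of 1.55. The differences of *Atp8b1* (1.52), *Atp10b* (1.47) and *Tmem30b* (1.27) lie within that range. The 5 measured Paneth and goblet cell genes were higher by between 1.31 and 1.93, also with spike-in scaling, where their median was 0.59. Of 14 macrophage and dendritic cell genes, 14 were higher, by a median of 1.90 that counts *C1qa* and *C1qc* at bounds, since these were not well above background on the control array. The median was 1.51 over the 12 measured on both arrays, 1.21 with normexp and 0.79 with spike-in scaling. These are differences of the brightest probe of each gene, by which *Itgam* and *Itgax* differed by 0.92 and 0.20. The other *Itgam* probes were at 0.58 and −0.39, and the latter was the only lower one among further probes of these genes. With spike-in scaling 10 of the 14 were higher, and 13 with quantile normalization or normexp. Of 5 B and plasma cell genes 3 had a difference, 2 of them higher and *Cd79b* at −0.26, which was more than 2-fold lower with spike-in scaling, and *Cd79a* and *Pax5* did not clear background on either array. The cells had been sorted as TCRβ+ CD8α+ without CD4, CD8β and TCRγδ, a gate that is meant to leave out epithelial, myeloid and B cells. The part of these cells in the differences of the flippase genes was not tested.

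**Figure D4:**
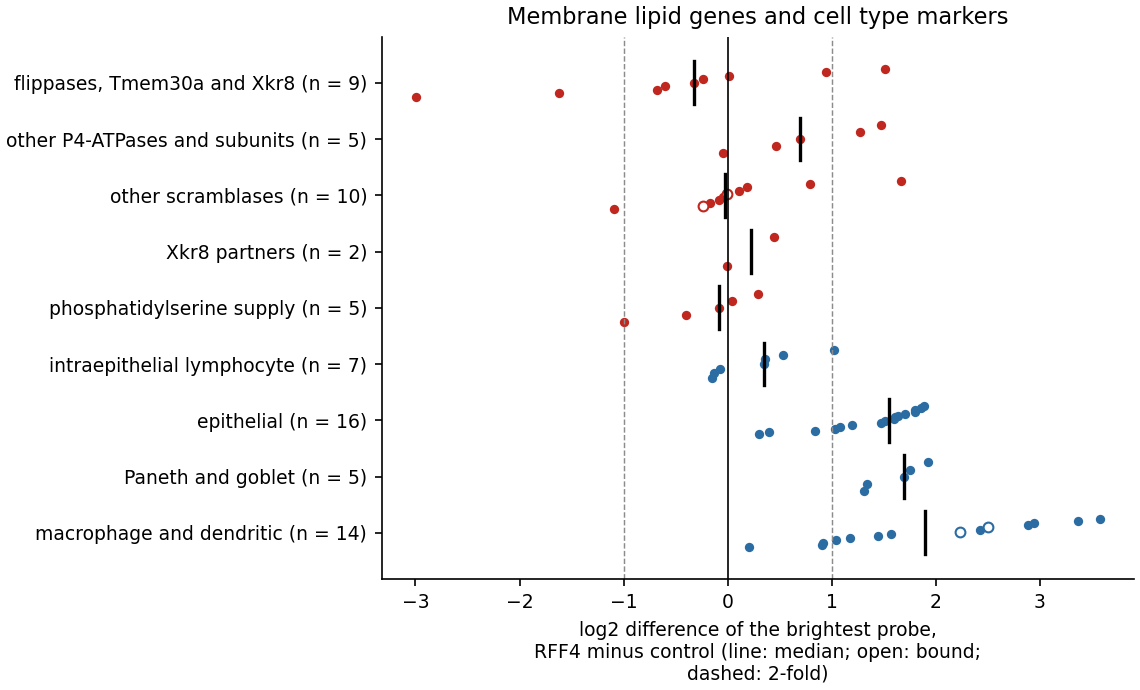
Log2 difference of the brightest probe of each gene, RFF4 minus control, for the 9 flippase, *Tmem30a* and *Xkr8* genes, for other genes of membrane lipid asymmetry (red) and for markers of the sorted and of other cells (blue), with medians as black lines, bounds as open circles and 2-fold as dashed lines. *Atp8a2*, at −3.0, is the lowest point plotted, and the 16 epithelial markers lie above 0 in this scaling, 5 of them below 0 with spike-in scaling.

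The scaling moved these genes together. Before any scaling, 11 of the 12 probes were dimmer on the array labelled RFF4, and with spike-in scaling 10 of the 12 were more than 2-fold lower, beside 51.6% of all probes. With normexp the order among them changed, since the dimmer *Atp8a2* probe, at −0.85, came to lie above the brighter *Atp11a* probe, at −1.57, and *Atp8b2*, at 0.25, came to lie above *Tmem30a*, at −0.19. Quantile normalization and cyclic loess left the same 4 *Atp8a2* and *Atp11a* probes past 2-fold, and normexp left the brighter probe of each.

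**Figure D5:**
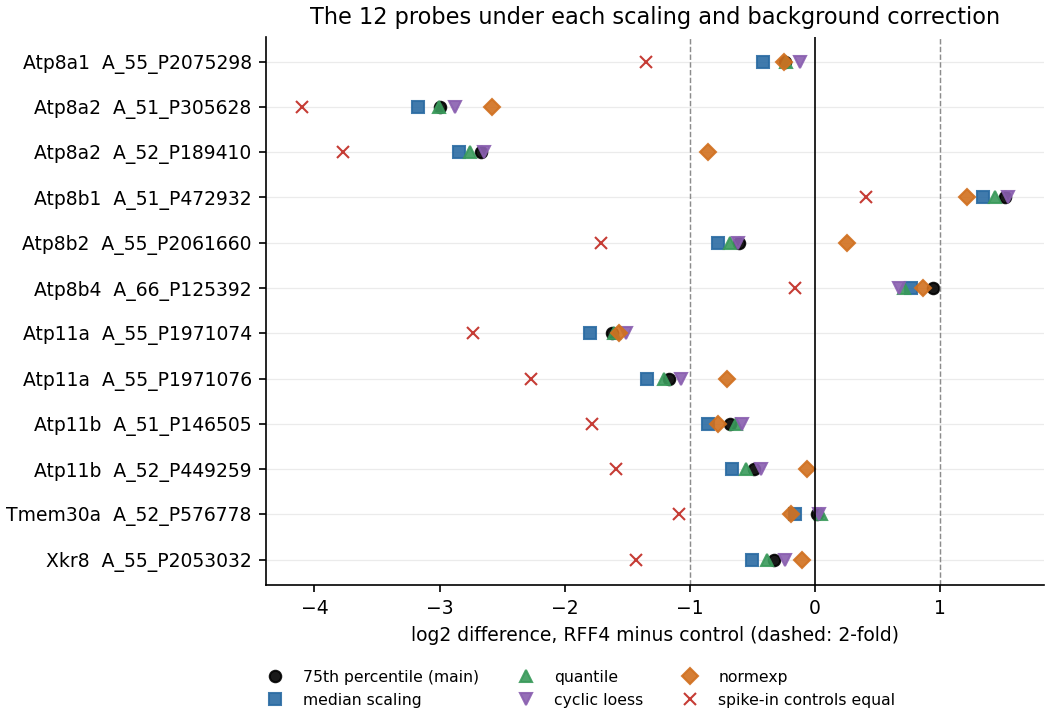
Log2 difference, RFF4 minus control, of each of the 12 probes under the main scaling to the 75th percentile (black) and 5 alternatives, with dashed lines at 2-fold. Both *Atp8a2* probes are lower under every setting drawn, the dimmer one at −0.85 with normexp, and the spike-in scaling shifts every probe by the same amount to the left.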

How the data were processed

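Gene expression was measured on 2 Agilent SurePrint G3 mouse arrays of 1 color, 1 per genotype. The authors deposited intensity values from Agilent Feature Extraction 10.7.1.1 (per the submitters' processing notes), background-subtracted, linear and not normalized between arrays, and a table of log2 values centered per probe, normalized by the authors with GeneSpring, used as an alternative. With 1 array per genotype, the number of arrays limits the precision.

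From the intensities, log2 values minus the 75th percentile of each array were taken (8.99 for the control array, 7.82 for the other), leaving out control and outlier spots, and spots of a probe were averaged. The scanner's call of well above background was needed in no fewer than 50% of a probe's spots. Where 1 array was not, the difference is a bound against the lowest signal well above background, which left 28686 probes with a difference. Of 55679 probes, 27509 were named through their accession by RefSeq (GRCm38.p6). A gene is represented by its brightest probe.

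All 9 genes and all genes of the membrane lipid lists may be named, with *Rbpj* and list markers. A rule for the 3 genes nearest in level to *Atp8a2* was dropped, since levels of different probes are not comparable. Some listed genes are not reported here and are left out of the list counts. Members and lists were chosen with earlier results of these data known. Steps were tested on simulated data. Protein sequences were not used here. Python 3.11.15, R 4.3.3 and limma 3.58.1 were used.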

Additional observations from a re-analysis of the deposited data

How the results depend on the processing

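Tried instead were quantile normalization, cyclic loess, median scaling, normexp with an offset of 50, scaling on 8 spike-in controls, the authors' normalized table, keeping outlier spots, no filter and no bound, requiring both arrays above background, and averaging a gene's probes. No paired analysis was possible because each genotype has 1 array, and no array could be left out. The probes of these genes more than 2-fold lower numbered 4, but 2 with normexp and 10 with spike-in scaling, and those more than 2-fold higher numbered 1, but 0 with spike-in scaling. Every other alternative on probes gave 4 and 1. All 12 probes cleared background on both arrays, so dropping the filter or requiring both arrays could not change these counts. Keeping outlier spots or using the authors' table moved all 12 differences by nearly the same small amount. Averaging a gene's probes left 2 genes lower and 1 higher. Over all probes tested, 1684 (5.87%) were more than 2-fold lower. They were 2595 (8.92%) with median scaling, 785 (2.89%) with normexp and 16361 (51.6%) with spike-in scaling. With no filter they were 3090, or 5.55% of the 55679 probes then tested. Those higher were 3292 (11.5%), and 420 (1.32%) with spike-in scaling and 19411 (34.9%) with no filter. The median of all probes shifted by −0.17 with median scaling, 0.14 with normexp, 0.41 with no filter and −1.03 with spike-in scaling. Of the 12 differences, 12 moved by more than the spot SD of 0.11 with median scaling, 8 with normexp, 4 with cyclic loess, 1 with quantile normalization and 0 with the authors' table. None past 2-fold changed direction. The cause was not tested, except that median and spike-in scaling shift every probe by a constant. The signal over background of the array labelled RFF4 limits what can be measured of *Atp8b4*, *Atp8b2* and the dimmer *Atp8a2* probe.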
